A study of Rattus norvegicus with 9 samples.

Results

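Macroglial genes were measured in RNA of microglia sorted from the rat retina, where RNA of 10 genes known from Müller glia and astrocytes was present although the sort aimed at another cell type. The 10 genes were taken by name from the table of gene counts, with earlier results of these data known, and they are 10 of the 28343 genes in that table. All 10 had counts, and 9 of them were among the 11748 genes that passed the filter on low counts and could be tested. The gene left untested was Kcnj10. The control group held 5 libraries, numbered 1, 3, 4, 5 and 6, from Dark Agouti rats, an inbred strain, given citrate buffer. The diabetic group held 4 libraries, numbered 1, 2, 4 and 5, from Dark Agouti rats given streptozotocin, a toxin of pancreatic beta cells, at 55 mg/kg. Rats were 8 to 10 weeks old when made diabetic and had fasted for 12 h before the injection. Diabetic rats with blood glucose above 30 mmol/l received 2 units of the insulin Protaphane, and retinas were taken at 4 weeks. The diabetic group is therefore a chemical model of insulin deficiency in which insulin was given at high glucose. Whole retinas were digested with papain, cells carrying CD11b, an integrin of microglia and other myeloid cells, were sorted, and their RNA was preamplified before sequencing.

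Müller glia span the retina and are its main macroglia, while astrocytes lie in the nerve fibre layer beside the vessels. They take up glutamate through the transporter encoded by Slc1a3 and turn it into glutamine with the synthetase encoded by Glul. They carry potassium through Kir4.1 (Kcnj10) and water through aquaporin-4 (Aqp4), hydrate carbon dioxide with carbonic anhydrase 2 (Car2), bind 11-cis-retinal with CRALBP (Rlbp1), secrete the chaperone clusterin (Clu) and the Wnt modulator Dkk3, and raise the filaments GFAP and vimentin (Gfap, Vim) in injury. Several of these genes are also known in myeloid cells, so a macroglial name does not by itself say which cell an RNA came from. In bulk RNA, fewer cells of a type and less RNA per cell cannot be told apart.

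Total counts were 6228756 to 11332823 per library, lowest in diabetic 4. Summed genes of microglia identity (15 genes, 14 of them tested) took 35175 to 40064 CPM (the count as a share of the scaled library size) among controls and 35224 to 37390 CPM among diabetic libraries, and Siglech of that list was at 0. Photoreceptor genes summed to 273 to 1442 CPM among controls and 433 to 2075 CPM among diabetic libraries. Genes of blood and border myeloid cells, which also carry CD11b, summed to 339 to 711 and 612 to 1363 CPM, with 9 of 9 tested genes above 0 in log2 fold change and Ccr2 and Cd209b at 0. The cell isolation response, immediate-early and stress genes, summed to 3822 to 28302 and 11697 to 17627 CPM.

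The 10 genes covered a wide span of levels. Glul and Slc1a3 were between 599.8 and 1308 CPM in every library, Car2, Vim, Dkk3, Clu and Rlbp1 were between 24.2 and 215 CPM, Aqp4 was between 3.85 and 15 CPM, and Gfap and Kcnj10 were scarce. A gene was placed with the abundant and steady genes when its lowest library was at 50 CPM or more and its highest was at most 3 times the lowest, and with the scarce genes when its highest library was under 10 CPM. By this description, which has no test and names no source, 5 genes were abundant and steady (Glul, Slc1a3, Dkk3, Car2 and Vim), 3 were intermediate (Rlbp1, Aqp4 and Clu) and 2 were scarce (Gfap and Kcnj10). Dkk3 lay just inside, with a highest library 2.95 times its lowest, and Clu just outside, with a lowest library at 44.2 CPM. Within groups, Dkk3 varied more (SD 0.57 on the log2 scale) than Rlbp1 (0.52) and Clu (0.50), so its place rests on the rule alone. The rule takes no account of gene length, and per kb of exon the median was 24.4 CPM for Dkk3 and 39.6 CPM for Clu. With a ratio of 2 in place of 3, or without normalisation factors, Dkk3 was intermediate. With a lowest level of 20 CPM in place of 50, Clu and Rlbp1 were abundant and steady as well.

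The glutamate genes led the set. Glul was at 1167, 1153, 1308, 1252 and 1176 CPM in controls 1, 3, 4, 5 and 6, and at 1121, 1061, 1074 and 1061 CPM in diabetic 1, 2, 4 and 5. The groups did not overlap, the 4 diabetic libraries being lower than the 5 controls, and the highest library of all, control 4, was only 1.23 times the lowest. Within groups its SD on the log2 scale was 0.064, against 0.014 from counting alone, and 1.30% of the 77 genes at a like level varied less. Slc1a3 was at 788, 974, 909.8, 877 and 884 CPM in the controls and at 599.8, 705, 659 and 806 CPM in the diabetic libraries. Diabetic 5 lay among the controls and the other 3 diabetic libraries below them. Its highest library was 1.62 times its lowest, and 39.4% of genes at a like level varied less.

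Car2 and Vim met the rule for abundant and steady genes at lower levels. Car2 was at 129.9, 128, 144, 98.6 and 159 CPM in the controls and at 102, 95.8, 84.9 and 81.8 CPM in the diabetic libraries. Diabetic 1 lay above the lowest control, control 5, and the other 3 diabetic libraries lay below every control. Vim, the vimentin gene, was at 97.3, 96.6, 80.5, 91.7 and 86.3 CPM in the controls and at 106, 87.5, 86.0 and 113 CPM in the diabetic libraries. Diabetic 1 and 5 were above every control and the other diabetic libraries lay among them, so the groups overlapped. The highest library was 1.94 times the lowest for Car2 and 1.41 times for Vim. At a like level, 72.1% of genes varied less than Car2 and 41.3% less than Vim.

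**Figure D1:**
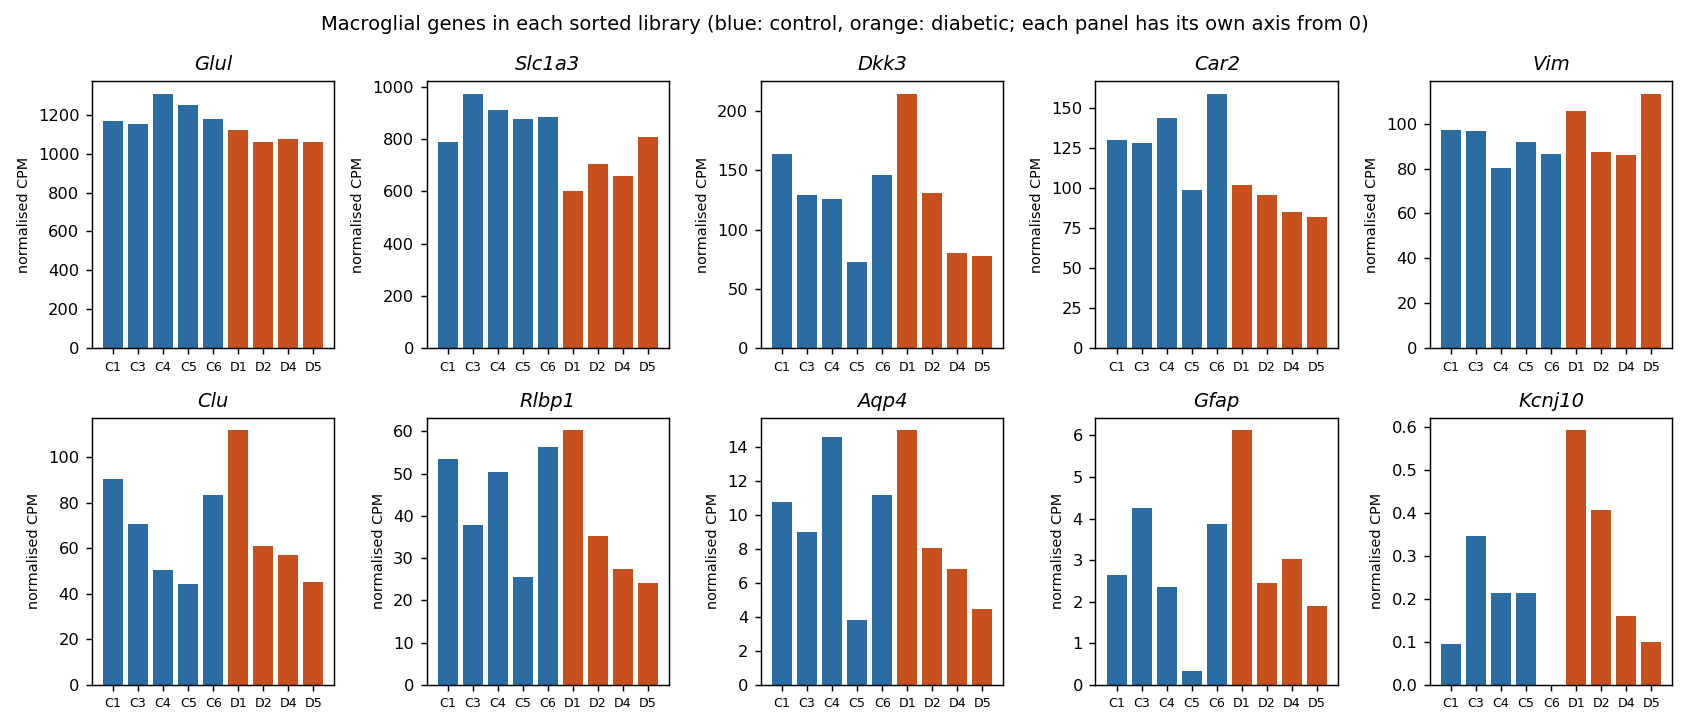
Normalised CPM of the macroglial genes in each of the 5 control and 4 diabetic libraries. Glul and Slc1a3 run nearly level across libraries, while Dkk3, Clu, Rlbp1 and Aqp4 rise and dip together, low in control 5 and diabetic 5 and high in diabetic 1.

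The secreted proteins and the retinoid carrier varied more. Dkk3 was at 164, 129, 125, 72.7 and 146 CPM in the controls and at 215, 131, 79.9 and 77.9 CPM in the diabetic libraries. It was highest in diabetic 1 and lowest in control 5, and the groups overlapped. Clu, the clusterin gene, was at 90.3, 70.8, 50.4, 44.2 and 83.5 CPM in the controls and at 112, 60.9, 56.8 and 45.1 CPM in the diabetic libraries. Rlbp1 was at 53.5, 37.9, 50.4, 25.5 and 56.2 CPM in the controls and at 60.2, 35.3, 27.4 and 24.2 CPM in the diabetic libraries. For both genes diabetic 1 was the highest library, and control 5 and diabetic 5 were the lowest pair. Within-group SDs on the log2 scale were 0.57 for Dkk3 and 0.52 for Rlbp1, against 0.046 and 0.079 from counting alone. At a like level, 95.7% of genes varied less than Dkk3, 95.1% less than Rlbp1 and 95% less than Clu.

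The channel genes and Gfap were low. Aqp4, the water channel of glial endfeet, was at 10.8, 9.02, 14.6, 3.85 and 11.2 CPM in the controls and at 15, 8.06, 6.85 and 4.50 CPM in the diabetic libraries. Control 5 and diabetic 5 were again the lowest pair and diabetic 1 the highest library. Gfap, the filament of astrocytes and of injured Müller glia, was at 2.64, 4.25, 2.36, 0.321 and 3.87 CPM in the controls and at 6.12, 2.45, 3.03 and 1.90 CPM in the diabetic libraries. It was lowest in control 5 and highest in diabetic 1, a 19.1-fold span on few counts, and the groups overlapped. Kcnj10, the Kir4.1 channel, had 1, 4, 2, 2 and 0 counts in the controls and 6, 4, 1 and 1 in the diabetic libraries, 21 counts in all. By counting error alone, the count of 0 in control 6 allows a level of up to 0.387 CPM. With so few counts it failed the filter, and no difference between libraries was tested.

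Levels can be set against each other only per length. Exons were known for 6 of the 10 genes from reference transcripts in the authors' assemblies on build Rnor6. Glul (ENSRNOG00000049560) spans chr13:71331052-71340229 on the plus strand with 2485 exonic bases. These per-length levels use total counts without TMM scaling, unlike the CPM elsewhere. The median over the 9 libraries was 472 CPM per kb of exon for Glul, with a range of 397 to 514. It was 66.8 for Car2 (chr2:88097720-88113029, minus strand), 50.4 for Vim (chr17:80882666-80891212, plus strand), 39.6 for Clu (chr15:42653148-42665857, plus strand), 24.4 for Dkk3 (chr1:176940693-176983045, minus strand) and 16.0 for Rlbp1 (chr1:141097695-141111400, minus strand). The ratio of Glul to Vim per length, averaged over the 9 libraries, was 9.30 ± 1.47 (SD), and the range of Glul lay above the ranges of the other 5. Ranges over libraries of neighbours below Glul overlapped, with 51.8 to 81.6 CPM per kb for Car2, 39.0 to 63.4 for Vim, 27.4 to 72.8 for Clu, 14.8 to 45.9 for Dkk3 and 10.4 to 26.7 for Rlbp1. Within every library, though, Clu was above Dkk3 and Dkk3 above Rlbp1. The order of Car2 and Vim, and that of Vim and Clu, changed between libraries.

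Upstream sequences are shown for 2 of the abundant and steady genes (Glul and Slc1a3), for the retinoid carrier (Rlbp1) and for the scarce filament gene (Gfap), since these genes stand for the different patterns. They are the 250 bases before a transcription start in RefSeq on build GRCr8, written 5′ to 3′ on the gene's strand. The table held 11 starts for 7 of the 10 genes, among them more than 1 start each for Glul, Slc1a3 and Aqp4. Capitals mark GAGGAA or its reverse complement TTCCTC, the core letters of the PU box that the myeloid factor PU.1 binds. The Glul start shown is the one whose window holds these letters. The windows are chr13:68575816-68576065 (plus strand) for Glul, chr2:59557809-59558058 (minus strand) for Slc1a3, chr1:142731622-142731871 (minus strand) for Rlbp1 and chr10:88361662-88361911 (minus strand) for Gfap.
Glul: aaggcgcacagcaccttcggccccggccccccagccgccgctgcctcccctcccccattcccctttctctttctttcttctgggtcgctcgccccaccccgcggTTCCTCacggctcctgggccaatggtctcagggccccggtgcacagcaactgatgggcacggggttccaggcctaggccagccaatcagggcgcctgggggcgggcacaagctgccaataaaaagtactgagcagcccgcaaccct
Slc1a3: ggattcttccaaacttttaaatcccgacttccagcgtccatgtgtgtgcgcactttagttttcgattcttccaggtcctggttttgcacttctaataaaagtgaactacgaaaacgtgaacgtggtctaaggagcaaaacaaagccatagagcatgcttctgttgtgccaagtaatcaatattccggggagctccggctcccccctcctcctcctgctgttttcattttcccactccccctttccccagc
Rlbp1: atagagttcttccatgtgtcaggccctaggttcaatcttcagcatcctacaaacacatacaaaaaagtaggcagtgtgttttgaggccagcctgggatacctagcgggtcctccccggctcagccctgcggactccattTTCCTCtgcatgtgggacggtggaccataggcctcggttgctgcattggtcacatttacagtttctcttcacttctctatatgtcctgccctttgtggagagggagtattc
Gfap: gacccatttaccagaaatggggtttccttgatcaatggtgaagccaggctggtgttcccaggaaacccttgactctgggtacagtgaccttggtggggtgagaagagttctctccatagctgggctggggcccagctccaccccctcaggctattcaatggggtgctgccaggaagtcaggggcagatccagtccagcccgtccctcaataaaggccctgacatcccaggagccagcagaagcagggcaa
The letters occurred on either strand in 4 of the 11 windows (36.4%), those of Rlbp1, Kcnj10, Vim and 1 Glul start, and in 23.3% of 33469 such windows over all genes. The Slc1a3 windows, from 59557788, 59557798 and 59557809 on chr2, overlap nearly in full and lack the letters. The 11 windows are therefore not separate sequences, and the share depends on how starts are counted. The windows that hold them thus belong to an abundant, an intermediate and a scarce gene alike, and a match of letters is not a bound site. AACAAT or ATTGTT, core letters bound by SOX factors, occurred in 0 of the 11 windows and in 10.3% of all windows.

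How the genes moved together between libraries was measured against Rlbp1, a gene of Müller glia and of the pigment epithelium, which was chosen as the reference after its values had been seen. Dkk3 kept closest to it, Aqp4 and Clu were high and low in much the same libraries, and Glul, Slc1a3 and Vim were not. Gfap followed it in part. It was likewise highest in diabetic 1 and low in control 5 and diabetic 5. In control 3 it was at 4.25 CPM and in control 4 at 2.36 CPM, where Rlbp1 was at 37.9 and 50.4 CPM. The ratio of Dkk3 to Rlbp1 counts was 2.49 to 3.70 over the 9 libraries with a median of 3.06, a 1.49-fold span, although each gene alone spanned over 2-fold. The ratio of Aqp4 to Rlbp1 was 0.151 to 0.290 (1.92-fold) and that of Clu to Rlbp1 was 1 to 2.08 (2.08-fold). The spans were wider for Car2 (1.70 to 3.87, 2.28-fold), Glul (18.6 to 49.2, 2.64-fold), Vim (1.54 to 4.69, 3.05-fold) and Slc1a3 (9.96 to 34.4, 3.46-fold). Glul and Slc1a3 kept a ratio of 1.18 to 1.87 to each other, a 1.58-fold span. Gfap over Rlbp1 ran from 0.0126 to 0.112, an 8.90-fold span and wider than those above. Its lowest ratio, in control 5, rests on 3 counts of Gfap.

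**Figure D2:**
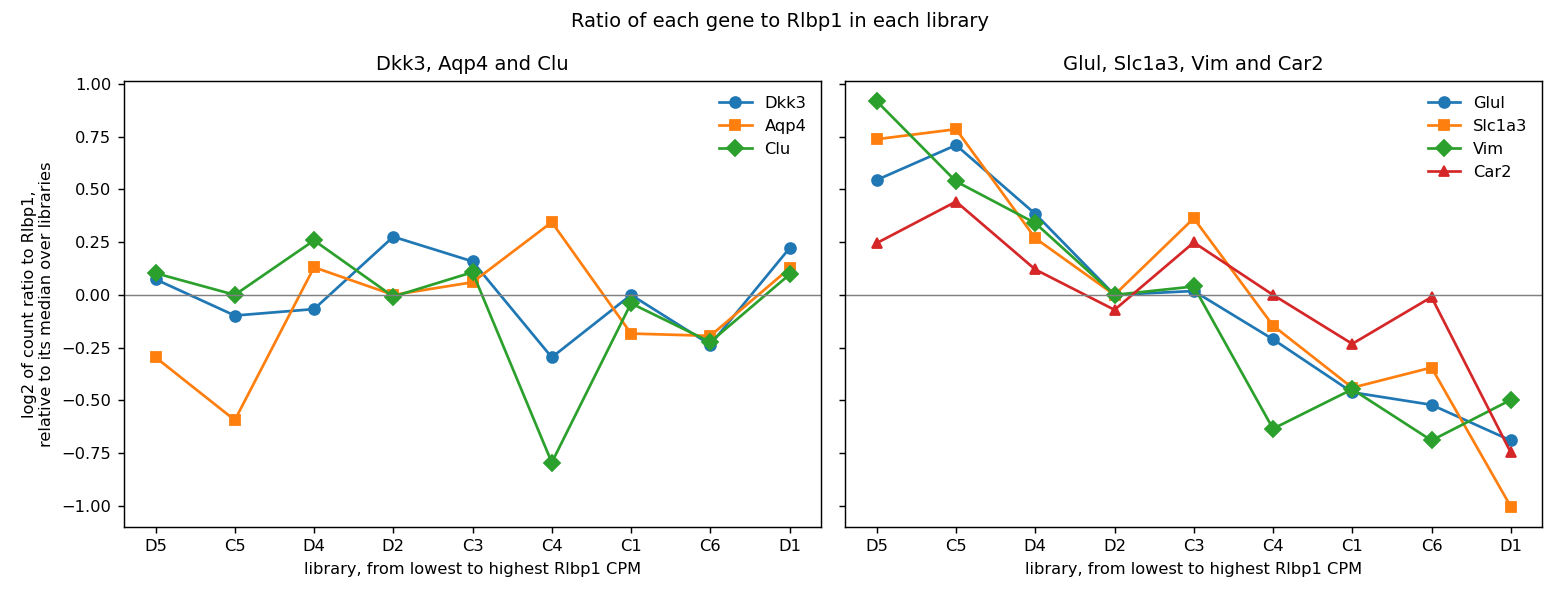
Ratio of each gene's counts to those of Rlbp1 in the 9 libraries (log axis), divided by its median over libraries. Dkk3 stays closest to 1, while Glul, Slc1a3 and Vim are high in control 5 and diabetic 5 and low in diabetic 1, the mirror of Rlbp1 itself.

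A model with group and log2 Rlbp1 over all genes gave each gene a slope, the log2 change per log2 change of Rlbp1, so that a slope of 1 keeps the ratio fixed and a slope of 0 is a level unrelated to it. Dkk3 had a slope of 1.03 (SE 0.13), which passed the quasi-likelihood test of edgeR at an adjusted p of 0.0303. It was 1 of 8 genes of the set that passed, where 4 of 11747 genes (0.0341%) did. Slopes were 1.29 (SE 0.22, adjusted p = 0.133 in the same edgeR test) for Aqp4, 0.83 (SE 0.17, adjusted p = 0.256) for Clu and 1.34 (SE 0.51, adjusted p = 0.929) for Gfap. Car2 had a slope of 0.37 (SE 0.11, adjusted p = 0.625 in edgeR). The slope was 0.015 (SE 0.084) for Glul, -0.015 (SE 0.12) for Vim and -0.17 (SE 0.10) for Slc1a3. Unadjusted 95% intervals held 1 and not 0 for 4 genes (Dkk3, Aqp4, Clu and Gfap), 0 and not 1 for 3 (Glul, Slc1a3 and Vim) and neither for Car2, whose interval was 0.13 to 0.60. At an unadjusted p below 0.05, 5 of the 8 had slopes above 0, where 3.09% of all genes did. That count was 3 without control 5 and 4 without diabetic 1, and Gfap was not among them in either fit. The call of Dkk3 rested on single libraries: its adjusted p in edgeR was 0.861 without diabetic 1, 0.205 without control 5, 0.169 without diabetic 5, 0.0835 without diabetic 4, 0.0640 without control 1, 0.0635 without control 4 and 0.0550 without diabetic 2. Without diabetic 1 and 5, the libraries farthest from the median, it was 0.996. Its slope was 0.95 to 1.06 in these fits.

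Genes outside the set that are known from the same glia mostly had slopes above 0 on Rlbp1 as well. Of 22 tested genes of other macroglial markers, 20 had slopes above 0 and 15 had an unadjusted p below 0.05, all of them above 0, with 0 past the adjusted threshold of edgeR. Their median slope was 0.94, where the median of all genes was -0.0031 and 49.3% were above 0. Apoe, the lipid carrier of glia and macrophages, was an exception at 10008 to 14904 CPM and a slope of -0.025 (SE 0.13), as was the tetraspanin gene Cd9 with -0.0057 (SE 0.18). The other genes past the threshold beside Dkk3, named after their values were seen, were Kdr, a VEGF receptor (slope 1.09), Gad1, which makes GABA in amacrine cells (2.02), and Pax6, a factor of amacrine and glial cells (2.22). Rlbp1 therefore moved with genes of inner retinal neurons too, whose list had a median slope of 0.64 over 16 tested genes, and glial and neuronal RNA in these libraries were not told apart. Microglia identity genes had a median slope of -0.049 over 14 genes. The cell isolation response had a median slope of 0.65, with 11 of its 12 tested genes above 0. In edgeR, 0 of those 12 had an unadjusted p below 0.05.

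Against photoreceptor RNA the macroglial genes were near level. Slopes on the photoreceptor sum ran from -0.34 for Gfap to 0.08 for Rlbp1, and 0 of the 9 genes passed the edgeR test, where 26 of 11748 genes (0.221%) did. Of those 26, 10 belong to the photoreceptor list that makes up the tracer, so that share is raised by the tracer itself. All 9 unadjusted intervals held 0 and none held 1. Without control 3 and diabetic 2, the libraries farthest from the median, slopes were 0.13 (SE 0.52) for Rlbp1, 0.25 (SE 0.60) for Dkk3 and 0.32 (SE 0.50) for Clu. They were -0.20 (SE 0.67) for Aqp4 and 0.11 (SE 0.90) for Gfap. For these genes that fit cannot set a slope of 1 apart from 0. The SEs were 0.12 to 0.21 for Glul, Slc1a3, Vim and Car2. Control 5, the lowest or second lowest library for Rlbp1, Dkk3, Clu and Aqp4, had the second highest photoreceptor sum at 1442 CPM. With genes of inner retinal neurons as the tracer, 0 of the 9 passed in edgeR, where 24 of 11748 genes did. An unadjusted p below 0.05 was reached by 5 of the 9, and by 530 of all 11748 genes. The genes tested again included those of the tracer. Slopes on that tracer were 0.79 for Rlbp1, 0.82 for Dkk3, 0.86 for Aqp4, 0.74 for Clu and -0.28 for Slc1a3.

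Markers of cells that share these genes ran from absent to abundant. Pax2, which marks retinal astrocytes, was at 0 in every library, Aldh1l1 was at most 0.520 CPM and Gjb6 at most 0.434 CPM. Other genes known from astrocytes were higher, with up to 5.19 CPM for Gja1, 3.64 to 9.72 CPM for S100b and 25.1 to 79.1 CPM for Aldoc. The pigment epithelium also has Rlbp1, and its genes Lrat and Tyr were at 0, while Rpe65 had at most 7 counts and Ttr at most 8. Best1, listed as a pigment epithelium gene, was at 1278 to 1807 CPM. Oligodendrocytes also have Car2. Of their 8 genes, Mobp and Olig2 were at 0, Mog, Mag and Sox10 had at most 4 counts, Mbp was at 43.8 to 74.1 CPM and Cnp at 363 to 489 CPM.

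In the comparison of diabetic with control microglia, Car2, Slc1a3 and Glul had lower means in diabetic libraries, short of the adjusted threshold, and the differences of the other 6 tested genes did not exceed the spread between libraries. In the quasi-likelihood test of edgeR, adjusted over all genes by the Benjamini-Hochberg method, 0 of the 9 passed, where 8 of 11748 genes (0.0681%) did. At an unadjusted p below 0.05, 3 of the 9 did, all lower, where 18.9% of all genes did in either direction and 10% as lower. Without normalisation factors only Car2 did, 1 of the 9. The set's median log2 fold change was -0.17 over 9 genes, with 3 above and 6 below 0, and that of all genes was 0.0018.

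Car2 had a mean of 132 ± 22.3 CPM over the controls (SD, n = 5) and 91.2 ± 9.54 CPM over the diabetic libraries (SD, n = 4), a log2 fold change of -0.53 (SE 0.13) with an edgeR adjusted p of 0.0991. Slc1a3 averaged 886 ± 67.1 CPM over the controls (SD, n = 5) and 692 ± 87.1 CPM over the diabetic libraries (SD, n = 4), a log2 fold change of -0.36 (SE 0.10) with an edgeR adjusted p of 0.119. Both genes had 3 of 4 diabetic libraries below all controls. They passed under the DESeq2 Wald test (adjusted p = 0.0164 and 0.0354), where 5.16% of genes did, and with the cell isolation response as covariate in edgeR (adjusted p = 0.00929 and 0.0440), where 12.9% did. Without any 1 library their edgeR adjusted p-values stayed between 0.0777 and 0.293. The authors' deposited table put Car2 at -0.40 on the log2 scale with an adjusted p of 0.226, and Slc1a3 at -0.24 with 0.651, and 0 of the 9 genes it lists were under 0.05, where 2.1% of its genes were. The oligodendrocyte gene Cnp also lay lower in all diabetic libraries (log2 fold change -0.27, SE 0.079, edgeR adjusted p = 0.123). The part of such genes, and of the higher blood and border myeloid genes in diabetic libraries, in the differences of Car2 and Slc1a3 was not tested.

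Glul was at 1211 ± 66.3 CPM over the controls (SD, n = 5) and 1079 ± 28.6 CPM over the diabetic libraries (SD, n = 4), a log2 fold change of -0.17 (SE 0.074) with an edgeR adjusted p of 0.249. It was the 1 gene of the 9 whose groups did not overlap, where 4.16% of genes did so with the diabetic group lower, and without normalisation factors its groups overlapped and its log2 fold change was -0.051 (SE 0.096). Vim had a log2 fold change of 0.12 (SE 0.11, edgeR adjusted p = 0.561).

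The genes with slopes near 1 on Rlbp1, and Rlbp1 itself, had wide intervals between groups. The log2 fold change was -0.28 (SE 0.31) for Rlbp1, -0.19 (SE 0.40) for Aqp4, -0.017 (SE 0.35) for Dkk3 and 0.018 (SE 0.30) for Clu, with edgeR adjusted p-values of 0.641 to 0.985. Without diabetic 1 that of Rlbp1 was -0.62 (edgeR adjusted p = 0.288), and without diabetic 5 it was -0.12. Gfap, whose protein rises in Müller glia of injured retina, had 2.69 ± 1.54 CPM over the controls (SD, n = 5) and 3.37 ± 1.89 CPM over the diabetic libraries (SD, n = 4). The difference on the log2 scale was 0.33 (SE 0.55, edgeR adjusted p = 0.766), and the interval of -0.87 to 1.53 leaves both a fall and a rise within the error. With Rlbp1 as covariate it was 0.71 (SE 0.48). Leaving out 1 library took the log2 fold change of Gfap from -0.14 to 0.57, and those of Dkk3, Clu and Aqp4 through 0 as well.

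**Figure D3:**
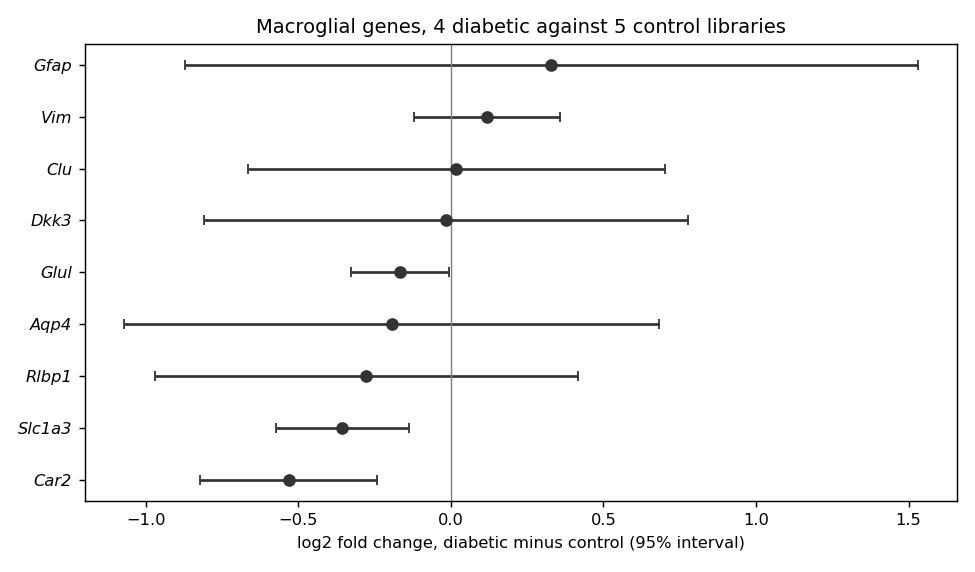
Log2 fold change, diabetic minus control, with 95% intervals for the 9 tested genes (5 control and 4 diabetic libraries). The intervals are narrow for Glul, Slc1a3, Car2 and Vim and wide for Gfap, Aqp4, Rlbp1, Dkk3 and Clu; 0 of the 9 genes passed the adjusted threshold.

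The pathways around these genes showed no call either. In glutamate and glutamine handling, 0 of 10 tested genes passed in edgeR and 3 had an unadjusted p below 0.05, where 18.9% of all genes did. Glutamate dehydrogenase (Glud1) had a log2 fold change of -0.18 (SE 0.080) and the glutamine transporter Slc38a1 1.35 (SE 0.50), with edgeR adjusted p-values of 0.241 and 0.186. Among 9 tested genes of potassium, water and pH handling, 0 passed and 1 had an unadjusted p below 0.05 (all genes 18.9%), the lactate transporter Slc16a1 with a log2 fold change of -0.82 (SE 0.26, edgeR adjusted p = 0.153). Among 6 of retinoid handling, 0 passed and Dhrs3, a retinal reductase, had 0.38 (SE 0.17, edgeR adjusted p = 0.246). Their median log2 fold changes were -0.089, 0.053 and 0.22.

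Genes of reactive gliosis, which rise in macroglia after injury, gave 0 calls among 16 tested genes in edgeR, with 2 above 0 (8.94% of all genes) and 1 below 0 at an unadjusted p below 0.05, and a median log2 fold change of -0.053. Ceruloplasmin (Cp), a copper-carrying ferroxidase, was at 155 ± 18.0 CPM over the controls (SD, n = 5) and 112 ± 10.5 CPM over the diabetic libraries (SD, n = 4), a log2 fold change of -0.47 (SE 0.11, edgeR adjusted p = 0.0890), with all diabetic libraries below all controls. Tgfb2, a growth factor of glia and neurons, had 0.91 (SE 0.22, edgeR adjusted p = 0.0990), with all diabetic libraries above all controls, as for 4.27% of all genes. The authors' deposited table calls it, at 1.03 on the log2 scale with an adjusted p of 0.00270. Lcn2 and Edn2, known to rise in reactive Müller glia, were at 0 in every library, which allows at most 0.478 CPM in the smallest, diabetic 4. Among 22 other macroglial markers 0 passed, 9 were above and 13 below 0, and their median was -0.086. The 0 calls in these lists are to be read against the 0.0681% of all genes called, and at an unadjusted p below 0.05 the count was 2 of 22 for the markers.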

How the data were processed

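Retinal microglia of 9 rats were profiled by RNA-seq. The authors deposited raw counts per gene symbol; bcl2fastq 2.18.0.12, TopHat2 2.0.14, StringTie 1.2.4 and edgeR are named in the submitters' processing notes, with the counting program and its strand option not given in the sources used here. The authors' deposited comparison holds log2 fold changes and p-values, and the assemblies hold TPM within each library, per the file headers. No molecular identifiers are named in the labels, and counts are taken as reads, and intervals cover counting error only where counting is named. All carry the same flow cell and lane. Each library is taken as 1 rat, which the labels do not state library by library.

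Genes were filtered with filterByExpr (minimum count 10, minimum total 15), scaled with TMM and tested in edgeR 4.0.16 (R 4.3.3) by the quasi-likelihood F test with robust dispersion, with Benjamini-Hochberg adjustment over all genes and a threshold of 0.05; steps were tested on simulated data. DESeq2 1.42.0 was an alternative. Slopes came from the same model with group and a centred log2 tracer as terms. CPM use TMM-scaled library sizes, and CPM per kb total counts. A like level means within 0.5 log2 CPM. The members, lists and rules were chosen with earlier results of these data known, and Rlbp1 as tracer or covariate and the TPM of overlapping transcripts were added after seeing the data. Text names the members, and from other lists the 3 most abundant genes, the 3 with the smallest p, calls, paralogs and markers at or near 0. No pair of libraries agreed within sampling noise.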

Additional observations from a re-analysis of the deposited data

How the results depend on the processing

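Over alternatives, 136 of 152 single-gene fold changes, 80 of 96 slopes on Rlbp1 and 98 of 117 slopes on photoreceptor RNA kept direction and side of the threshold. The number of genes called between groups was 8, and 29 without factors, 42 without a filter, 1517 with the cell isolation covariate, 2 with Rlbp1 as covariate, 598 by DESeq2 and 0 to 75 without 1 library. It was 0 with the replicate block in edgeR (1129 at an unadjusted p below 0.05), with 0 of the members and a log2 fold change of 1.18 for Gfap (SE 0.47, edgeR adjusted p = 0.510). Only numbers 1, 4 and 5 occur in both groups, so control 3, control 6 and diabetic 2 carried no information on the group difference in that fit. Among the libraries that did, control 5 had 3 counts of Gfap. The main fit did not treat the replicate numbers as pairs. Same-numbered pairs correlated at 0.20, -0.11 and 0.016, and only number 1 correlated best with its own number. So few pairs cannot settle whether the numbers pair the libraries. The 0 came without control 4, diabetic 1 or diabetic 4 (1687, 1792 and 1528 at an unadjusted p below 0.05 in edgeR; DESeq2 was not run on these). Members called were 2 with the isolation covariate and 2 by DESeq2.

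On Rlbp1, genes called were 0 without a group term, 1 without factors, 0 without the 2 farthest libraries and 0 to 2 without 1 library, and members called were 0, 1, 0 and 0 to 1. On photoreceptor RNA, genes called were 0 without the 2 farthest libraries and 13 to 24 without 1 library.

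Signs turned for genes near 0. The fold change of Dkk3 was 0.12 without factors and 0.23 with Rlbp1 as covariate, and that of Aqp4 0.17 with the latter. Without 1 library, fold changes ran from -0.41 to 0.15 for Dkk3, -0.32 to 0.17 for Clu, -0.14 to 0.57 for Gfap and -0.61 to 0.022 for Aqp4. With inner-neuron genes as tracer, the slope was 0.86 for Aqp4, 0.54 for Gfap and 0.74 for Clu. Without the 2 farthest libraries, the photoreceptor slope was -0.00095 for Glul, 0.11 for Gfap, -0.035 for Car2, 0.32 for Clu and 0.12 for Vim. Without 1 library it ran from -0.012 to 0.032 for Glul, -0.077 to 0.00054 for Slc1a3, -0.069 to 0.11 for Clu, -0.14 to 0.17 for Aqp4, -0.021 to 0.11 for Car2 and -0.056 to 0.21 for Dkk3. The slope on Rlbp1 was 0.0049 for Vim without factors and -0.032 for Glul without the 2 farthest libraries, and without 1 library ran from -0.029 to 0.062 for Glul and -0.15 to 0.080 for Vim. The level of Glul over Vim was 11.2 on TPM of all overlapping transcripts. The cause was not tested in any of these. Depth limits Kcnj10, with 0 to 6 counts per library, and Gfap.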
